A study of Mus musculus with 10 samples.

Results

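Type I interferon stimulated genes were followed in livers of mice that bore pancreatic tumours. The group was defined by a list of 42 gene symbols, chosen for what the genes are known to do but with earlier results of these data known, and all 42 were found among the 24972 gene symbols of the table. The 10 libraries were made from liver RNA of wild-type mice bearing tumours of clonal lines derived from the KPC mouse model of pancreatic ductal adenocarcinoma. The 4 T cell-low libraries came from mice with the line 6419c1, whose tumours hold few T cells, and the 6 T cell-high libraries from mice with the line 6555c3, whose tumours hold many. Each class is therefore a single clone, and clone and T cell class cannot be told apart. The labels give no age or sex and do not say that each library came from its own mouse, so the spread behind each p-value is that between libraries and could be partly technical. The question addressed is how the liver differs between mice with few and with many T cells in the tumour.

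Type I interferons bind a receptor made of IFNAR1 and IFNAR2, whose kinases JAK1 and TYK2 phosphorylate STAT2. Together with IRF9 it acts in a complex that enters the nucleus and binds a DNA element, the interferon stimulated response element, before its target genes. The targets include RNA sensors, RNA-binding inhibitors of translation, enzymes that make or act on unusual nucleotides, and a ubiquitin-like modifier, and several of them encode the pathway's own factors. Hepatocytes, Kupffer cells and endothelial cells of the liver all carry the receptor, and many of these genes also answer interferon gamma.

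Promoter sequence is shown because this element is how the complex recognises its targets, and the list of members did not use it. RefSeq promoters (build GRCm38.p6, 250 bases before to 50 after each start site) were held for 32 members, with no entry for Rtp4, Mx2, Zbp1, Dhx58, Parp14, Ifi27l2a, Mx1, Parp9, Usp18 and Oas2. The core of the element, GAAA repeated after a gap of any 2 bases, was searched on both strands with overlaps allowed. It was in the window of 15 of these 32 members (46.9%), against 3.99% of the 27025 genes with such a window. The following stretches, 5′ to 3′ on the strand of the gene and all before the start site, show the core in capitals for 5 members that fell in T cell-low livers (Isg15, Ifit1, Ifit3, Ifit3b, Bst2) and 2 that were not called (Rsad2, Stat2).
Isg15 (chr4:156200855-156200916, minus strand): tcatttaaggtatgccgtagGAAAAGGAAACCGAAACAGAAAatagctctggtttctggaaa
Ifit1 (chr19:34640765-34640833, plus strand): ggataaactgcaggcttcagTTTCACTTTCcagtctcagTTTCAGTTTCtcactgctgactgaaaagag
Ifit3 (chr19:34583353-34583436, plus strand): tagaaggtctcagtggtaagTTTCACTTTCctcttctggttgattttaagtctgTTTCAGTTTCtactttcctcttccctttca
Ifit3b (chr19:34607749-34607832, plus strand): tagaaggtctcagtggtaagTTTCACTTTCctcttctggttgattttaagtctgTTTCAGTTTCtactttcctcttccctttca
Bst2 (chr8:71537567-71537622, minus strand): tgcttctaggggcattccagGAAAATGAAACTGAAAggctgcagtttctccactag
Rsad2 (chr12:26456543-26456592, minus strand): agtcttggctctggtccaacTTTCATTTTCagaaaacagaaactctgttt
Stat2 (chr10:128270256-128270305, plus strand): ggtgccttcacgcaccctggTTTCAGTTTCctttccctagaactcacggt
Isg15 carries 3 overlapping copies and Bst2 carries 2, while Ifit1, Ifit3 and Ifit3b carry 2 separate copies in the reverse orientation, and the printed stretches of the neighbours Ifit3 and Ifit3b are identical. Of the 15 members with it 5 were called lower (median log2 fold change -0.83), and of the 17 without it 7 were (median -1.19), which is a description with no test. Windows of this length miss elements that lie elsewhere, and Irf9, Cmpk2 and Ifi44, which fell, hold no copy in theirs.

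Interferon stimulated genes were lower in T cell-low livers in 16 of the 40 members that could be tested, 0 were higher and 24 did not pass. By comparison 7.39% of all 11110 genes tested were called lower and 5.39% higher. The values are counts that the authors scaled between libraries, called scaled counts here, with unknown depth behind each. A gene was tested when its mean reached 10, and log2(scaled count + 1) was compared by limma with Benjamini-Hochberg adjustment over all genes, a call being an adjusted p below 0.05. Fold changes are on that log2 scale as T cell-low minus T cell-high, so low genes are understated. The median over the members was -0.94, against 0.00319 over all genes tested, and 39 of the 40 estimates were below 0, as were 49.8% of all genes. At an unadjusted p below 0.05, 24 of 40 members were lower and 0 higher, where 18.5% of all genes were lower and 16% higher. All 4 T cell-low values lay below all 6 T cell-high values in 5 members, Isg15, Ifit3b, Irf9, Cmpk2 and Ifi44 (4.02% of all genes), and in 0 members did all T cell-low values lie above (3.37% of all genes). Because the tissue was whole liver, fewer cells of a type and less RNA per cell cannot be told apart.

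**Figure D1:**
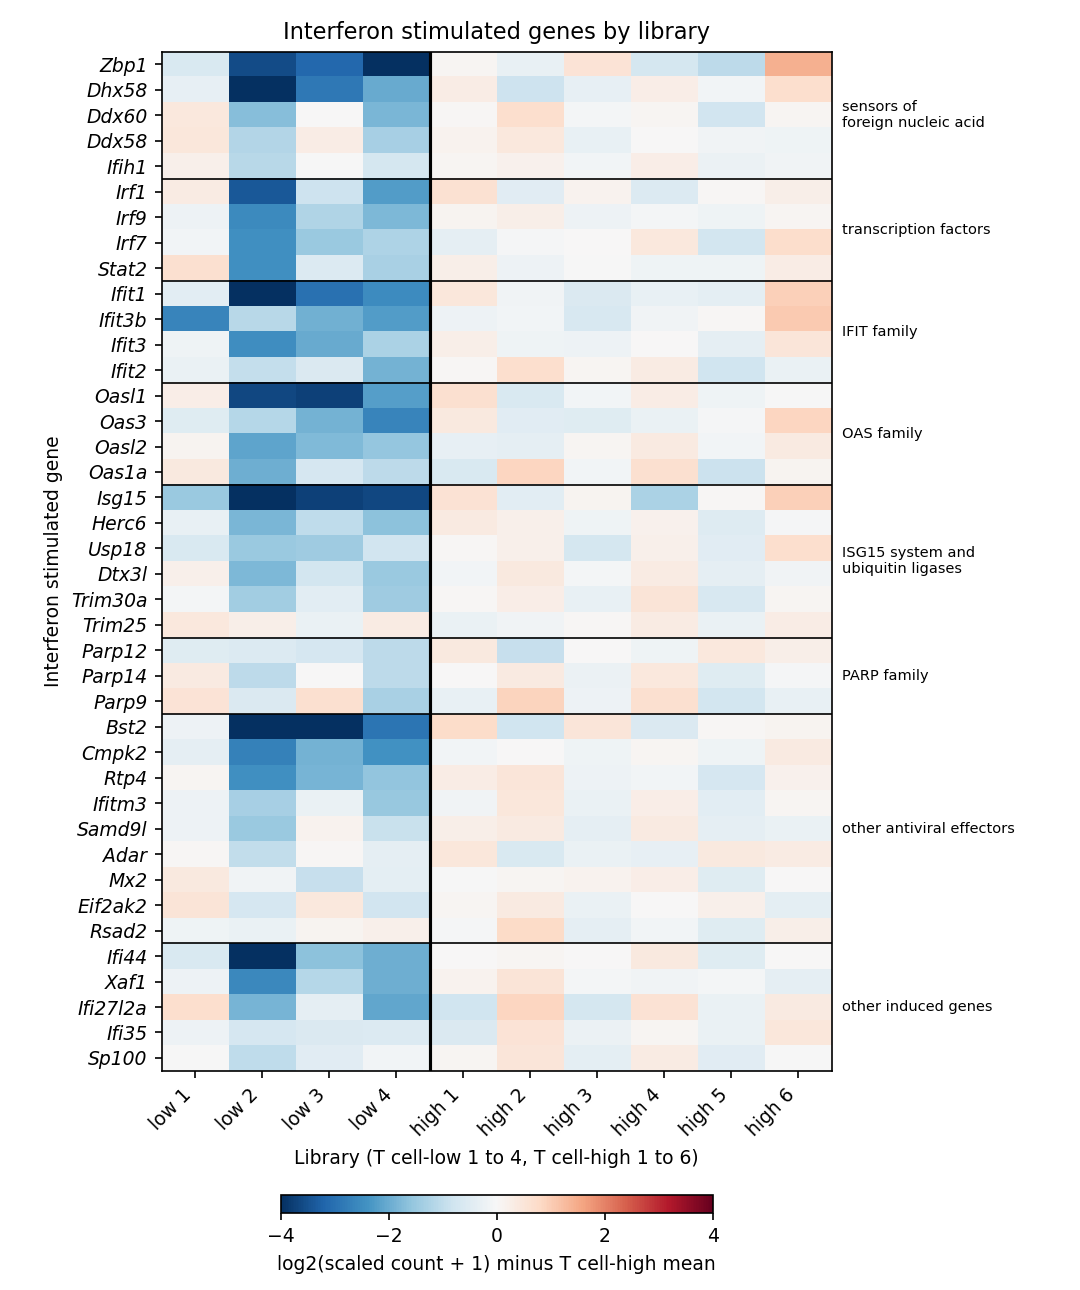
Heat map of the 40 tested members (rows, grouped by role) in the 10 libraries (columns), coloured by log2(scaled count + 1) minus the T cell-high mean of the gene, with colours saturating at -4 and 4. T cell-low 2 and 4 are blue in most rows, T cell-low 3 in fewer, and T cell-low 1 resembles the T cell-high libraries, with Isg15 and Ifit3b among its exceptions.

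The members were not equally low in the 4 T cell-low libraries. T cell-low 2 lay below every T cell-high library in 35 of the 40 members, T cell-low 4 in 34, T cell-low 3 in 22 and T cell-low 1 in 5. Over all genes tested these shares were 30.6%, 28.6%, 26.9% and 12.7%. The median of the members, on the log2 scale relative to the mean of the T cell-high libraries, was -0.13, -1.75, -0.79 and -1.50 in T cell-low 1 to 4, and it ran from -0.32 to 0.19 in the T cell-high libraries. T cell-low 1 exceeded all T cell-high libraries in 5 members, Ddx58, Stat2, Trim25, Mx2 and Eif2ak2. Without T cell-low 1, 26 of 40 members were called lower, against 17.2% of all genes.

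The number of calls rested on single libraries. It was 2, 3 and 1 without T cell-low 2, 3 and 4, it was 3, 3, 5 and 3 without T cell-high 1, 3, 5 and 6, and it was 17 and 11 without T cell-high 2 and 4. Calls over all genes moved in the same fits. Their lower share was 0.613%, 3.1% and 0.965% when T cell-low 2, 3 or 4 was left out in turn. It was 2.4%, 2.1%, 2.22% and 2.4% when T cell-high 1, 3, 5 or 6 was, and 11.8% and 5.9% when T cell-high 2 or 4 was. The median stayed between -1.39 and -0.79 in these 10 fits. Isg15 was called in all 10, Ifit3b in 9 (adjusted p = 0.0655 without T cell-low 4) and Cmpk2 in 8 (adjusted p = 0.0721 and 0.0661 when T cell-low 2 or 4 was left out), whereas each of the other 13 called members was called in 4 or fewer.

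**Figure D2:**
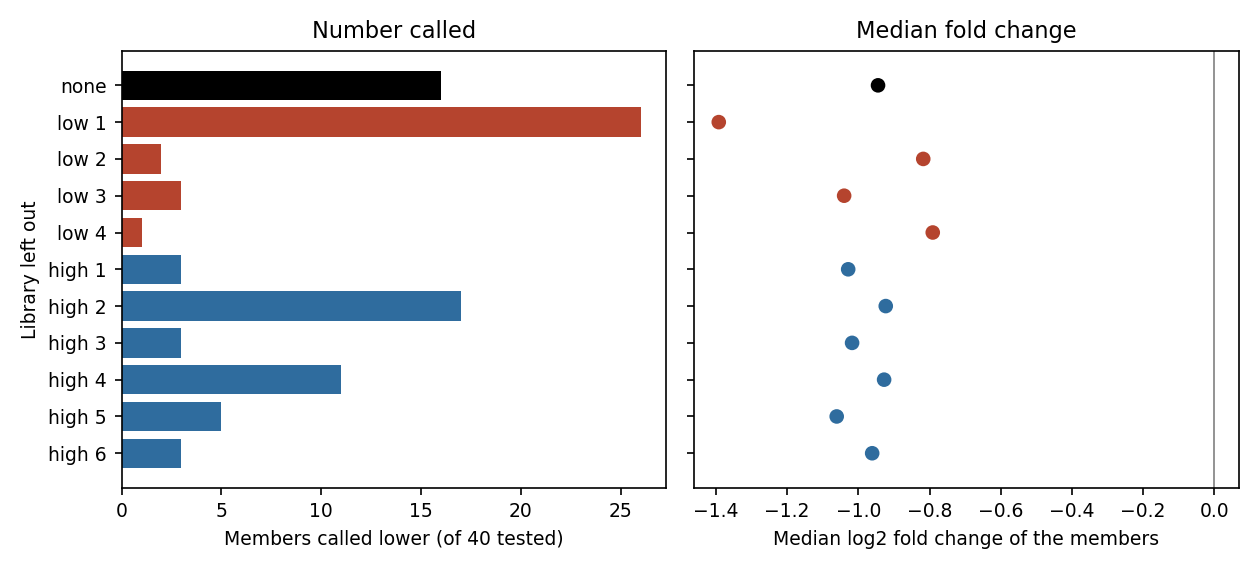
Left, number of the 40 tested members called lower by limma when no library or the named library is left out, as bars from 0. Right, median log2 fold change of the members in the same fits; the count runs from 1 to 26 while the median stays between -1.39 and -0.79.

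The T cell-high group held a second division. T cell-high 1, 3, 5 and 6 stand apart from all other libraries in a set of genes such as the globin gene Hbb-bs, with 3465 to 9359 scaled counts against 16.2 to 215, a set known from earlier work on these data. With that set as a covariate, so that T cell-low livers are compared with T cell-high 2 and 4 alone, limma called 0 members and 0 genes in all (1788 genes at an unadjusted p below 0.05). The median over the members was then -1.30, 38 of 40 estimates were below 0, and 25 of 40 members (62.5%) were lower at an unadjusted p below 0.05, against 8.89% of all genes. Adar turned from -0.32 to 0.16 in that fit.

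**Figure D3:**
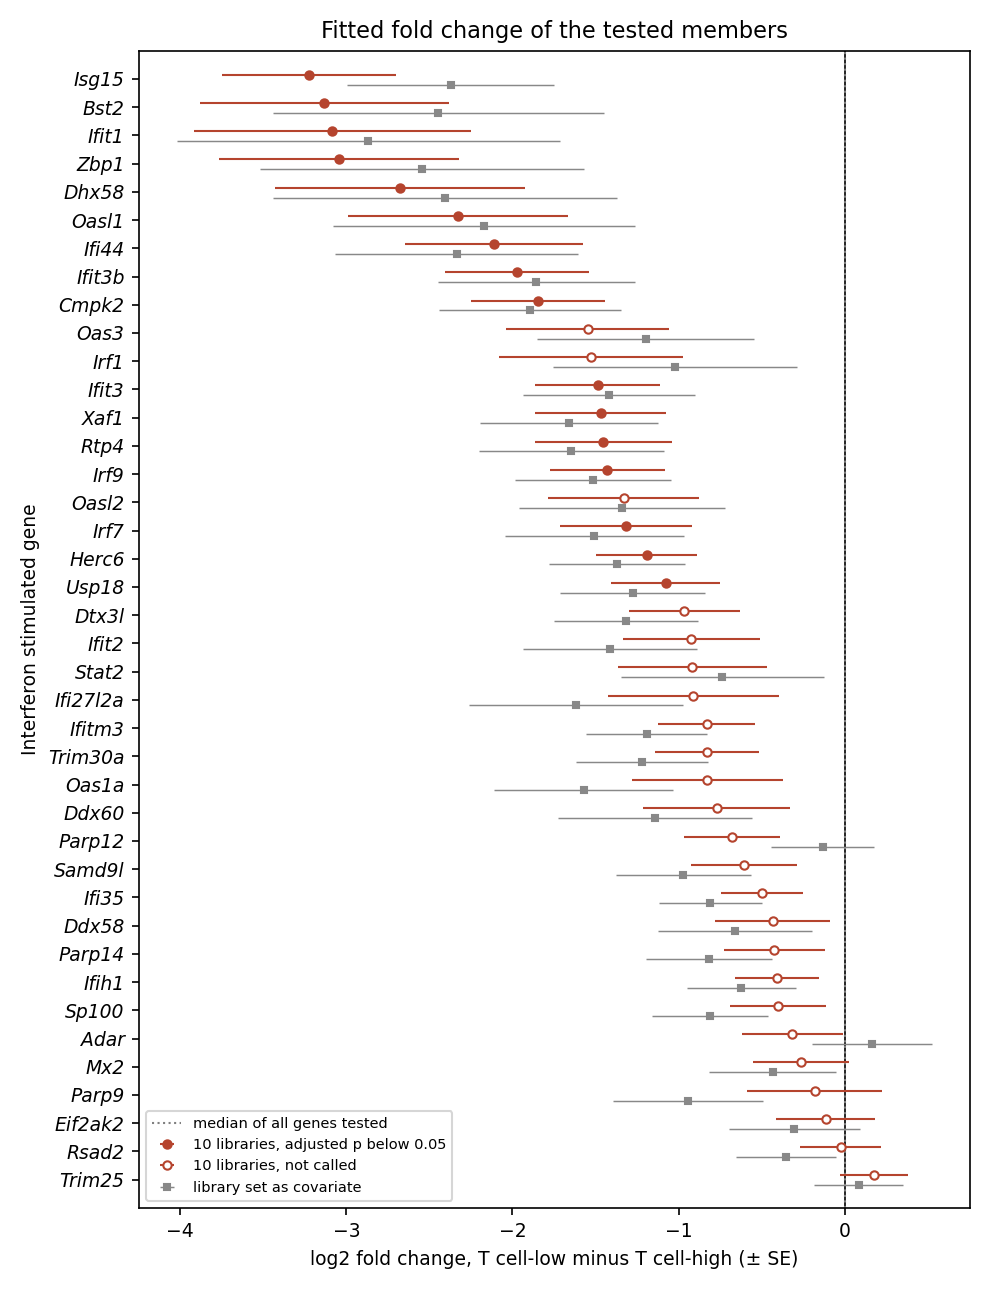
Log2 fold change (T cell-low minus T cell-high) with its SE for the 40 tested members, from all 10 libraries (circles, filled where the adjusted p is below 0.05) and with the library set as a covariate (grey squares). Estimates run from -3.22 for Isg15 to 0.17 for Trim25, and the dotted line marks the median of all genes tested.

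The ISG15 system and the ubiquitin ligases held the largest fold change, with 3 of 6 members lower. Isg15 encodes a ubiquitin-like protein that is attached to other proteins during an antiviral response. It had 38.7, 5.71, 7.25 and 7.77 scaled counts in T cell-low 1 to 4 and 44.3 to 212 (median 116) in the T cell-high group (log2 fold change -3.22 with an SE of 0.52, adjusted p = 0.00876). T cell-low 1 stood well above the other 3 of its group, yet below the lowest T cell-high library, T cell-high 4. Usp18, the protease that removes ISG15 and restrains the receptor, had 32.8, 17.4, 18.3 and 29.2 against 31.1 to 81.8 (median 55.5, log2 fold change -1.08 with an SE of 0.33, adjusted p = 0.0484). Herc6, a ligase that attaches ISG15 in the mouse, had 102, 35.1, 61.7 and 39.8 against 88.5 to 163 (median 131, log2 fold change -1.19 with an SE of 0.30, adjusted p = 0.0294), though 30% of its 3′ end words occur in another annotated gene. For Usp18 and Herc6 T cell-low 1 lay inside the T cell-high range and the other 3 below it.

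Dtx3l, a ubiquitin ligase that pairs with PARP9, had 510.4, 127, 266 and 158 scaled counts against 347 to 585 (median 417) and did not pass (log2 fold change -0.97 with an SE of 0.33, adjusted p = 0.0685). Its T cell-low 2, 3 and 4 values were below all T cell-high values. Trim25, the ligase that activates the sensor RIG-I, had 726, 632, 449 and 674 against 449 to 672 (median 529, log2 fold change 0.17 with an SE of 0.20, adjusted p = 0.564), the single member with an estimate above 0. For Trim30a, a restrainer of inflammatory signalling that shares 24.1% of its 3′ end words with Trim30d, the log2 fold change was -0.83 (adjusted p = 0.0891).

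Among the transcription factors, 2 of 4 were lower. Irf9, the DNA-binding subunit of that complex, had 526, 104, 264 and 174 scaled counts in T cell-low 1 to 4 against 529 to 713 (median 607, log2 fold change -1.43 with an SE of 0.35, adjusted p = 0.0256), without overlap, although T cell-low 1 was just under the lowest T cell-high library. Irf7, the factor that amplifies interferon production, had 226, 43.6, 86.6 and 103 against 146 to 395 (median 241, log2 fold change -1.32 with an SE of 0.40, adjusted p = 0.0481). Stat2, the partner that gives the complex its activating domain, had 196, 21.9, 85.3 and 50.4 against 109.7 to 154 (median 119, log2 fold change -0.92 with an SE of 0.45, adjusted p = 0.164). Its T cell-low 1 value was the highest of the 10 libraries and its T cell-low 2 value the lowest. Irf1, a factor induced more strongly by interferon gamma, ranged from 27.2 in T cell-low 2 to 370.4 in T cell-low 1, with 166 and 61.9 in T cell-low 3 and 4, against 200.4 to 449 (median 315, log2 fold change -1.53 with an SE of 0.55, adjusted p = 0.0784).

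Of 5 sensors of foreign nucleic acid 2 were lower. Zbp1, which recognises left-handed nucleic acid and can trigger cell death, had 26.2, 2.47, 3.73 and 0.411 scaled counts in T cell-low against 18.9 to 109.9 (median 37.5) in the T cell-high group (log2 fold change -3.04 with an SE of 0.72, adjusted p = 0.0242). Dhx58 encodes LGP2, a regulator of the RNA helicase sensors, and had 35.7, 0, 5.29 and 10.2 against 24.9 to 71.8 (median 47.5, log2 fold change -2.68 with an SE of 0.75, adjusted p = 0.0396), being listed at 0 in T cell-low 2. In both genes T cell-low 1 lay inside the T cell-high range and the other 3 below it.

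The remaining sensors did not pass. Ifih1 encodes MDA5, a sensor of long double-stranded RNA, and had 459, 187, 396 and 246 scaled counts against 339.8 to 479 (median 399, log2 fold change -0.41 with an SE of 0.25, adjusted p = 0.259). Ddx60, a helicase that assists RIG-I, had 129.6, 29.4, 99.1 and 26.9 against 56.9 to 155 (median 102, log2 fold change -0.77 with an SE of 0.44, adjusted p = 0.226). Ddx58, which encodes RIG-I, had 362, 117, 324 and 104 against 213 to 356 (median 254, log2 fold change -0.43 with an SE of 0.35, adjusted p = 0.385). In these 3 genes T cell-low 1 and 3 reached the T cell-high range or exceeded it, while T cell-low 2 and 4 were below it.

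The IFIT family includes binders of viral RNA that lacks the host's cap methylation, and 3 of the 4 members were lower. Their genes lie together on chromosome 19 of mm10 (Ifit2 from 34550694 to 34576419, Ifit3 from 34583531 to 34588731, Ifit3b from 34607970 to 34613401 and Ifit1 from 34640871 to 34650009). Ifit1 had 63.4, 0, 9.7 and 13.9 scaled counts in T cell-low against 55.8 to 165 (median 72.6) in the T cell-high group (log2 fold change -3.08 with an SE of 0.84, adjusted p = 0.0351). Ifit3 had 171, 33.3, 46.1 and 77.9 against 148 to 266 (median 183, log2 fold change -1.49 with an SE of 0.38, adjusted p = 0.0291). Its copy Ifit3b had 3.48, 12, 6.45 and 4.88 against 16.9 to 56.6 (median 24.8, log2 fold change -1.97 with an SE of 0.43, adjusted p = 0.0197). The copies parted in T cell-low 1, where Ifit3 was inside the T cell-high range and Ifit3b was the lowest of all 10 libraries. As 19.1% of the 3′ end words of Ifit3 also occur in Ifit3b, reads of the pair may be mixed. Ifit2 had 20.2, 11.9, 15.7 and 5.77 against 13.5 to 38.7 (median 25) and did not pass (log2 fold change -0.92 with an SE of 0.41, adjusted p = 0.133).

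The OAS enzymes make a short adenylate messenger that activates RNase L, and the OAS-like proteins are their relatives. Of 5 members 4 were tested and 1 was lower. Oasl1, known to repress translation of Irf7, had 49.4, 2.34, 2.12 and 8.02 scaled counts against 26.5 to 63.4 (median 38.6, log2 fold change -2.33 with an SE of 0.66, adjusted p = 0.0403). Oas3 had 14.2, 8.61, 4.71 and 2.4 against 14.2 to 37.6 (median 18.3, log2 fold change -1.55 with an SE of 0.49, adjusted p = 0.0531), and Oasl2 had 25.1, 4.56, 6.07 and 7.28 against 18 to 30.1 (median 22.8, log2 fold change -1.33 with an SE of 0.45, adjusted p = 0.065). In Oasl1, Oas3 and Oasl2 the T cell-low 2, 3 and 4 values were below the T cell-high range. Oas1a had 78.8, 14.6, 37.6 and 28.3 against 32.6 to 110.2 (median 60.3, log2 fold change -0.83 with an SE of 0.45, adjusted p = 0.21), and is uncertain because 43.6% of its 3′ end words occur in Oas1g. Oas2 was too low to test, with 0 to 5.74 in the T cell-low group against 0 to 5.28.

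Of 10 other antiviral effectors 9 were tested and 3 were lower. Cmpk2, a nucleotide kinase of mitochondria, had 48.3, 8.76, 16.2 and 10.7 scaled counts in T cell-low against 55.1 to 80.8 (median 60.3) in the T cell-high group (log2 fold change -1.85 with an SE of 0.40, adjusted p = 0.0194). Bst2, or tetherin, which holds budding virus at the cell surface, had 73.5, 3.78, 1.22 and 10.3 against 48.4 to 139.7 (median 88.8, log2 fold change -3.13 with an SE of 0.75, adjusted p = 0.0246). Rtp4, a regulator of the interferon response, had 219, 36.7, 55.6 and 68.2 against 129 to 288 (median 212, log2 fold change -1.45 with an SE of 0.41, adjusted p = 0.0399). Cmpk2 did not overlap between the groups, and Bst2 and Rtp4 overlapped through T cell-low 1 alone.

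Cmpk2 and Rsad2 lie next to each other on chromosome 12 on opposite strands (Rsad2 from 26442746 to 26456452, Cmpk2 from 26469204 to 26479837), and of the pair only Cmpk2 was called, though the difference between their changes was not tested. Rsad2 encodes viperin, which makes a chain-terminating nucleotide, and had 254, 239, 311 and 333 scaled counts against 204 to 484 (median 273, log2 fold change -0.03 with an SE of 0.25, adjusted p = 0.95). Its T cell-low values fell inside the T cell-high range in T cell-low 1 to 4, and the sign of this small estimate turned in 5 alternatives. Eif2ak2 encodes PKR, which shuts off translation, and had 164, 71.4, 153 and 66.3 against 86.5 to 145 (median 117, log2 fold change -0.12 with an SE of 0.30, adjusted p = 0.804), with T cell-low 1 and 3 above the T cell-high range and T cell-low 2 and 4 below it.

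Ifitm3, which blocks fusion of viruses in endosomes, had 8813, 3989.6, 8364 and 3555 scaled counts against 7559 to 13839 (median 9990.3) and did not pass (log2 fold change -0.83 with an SE of 0.29, adjusted p = 0.0702). T cell-low 2 and 4 were below the T cell-high range and T cell-low 1 and 3 within it. The log2 fold change was -0.61 for Samd9l, a restriction factor, -0.32 for Adar, the editor that marks double-stranded RNA as self, and -0.26 for Mx2, a dynamin-like GTPase gene annotated as a polymorphic pseudogene (adjusted p = 0.194, 0.479 and 0.536). Mx1 was below the limit for testing, with 4.68 to 10.2 in the T cell-low group against 0 to 19.4.

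**Figure D4:**
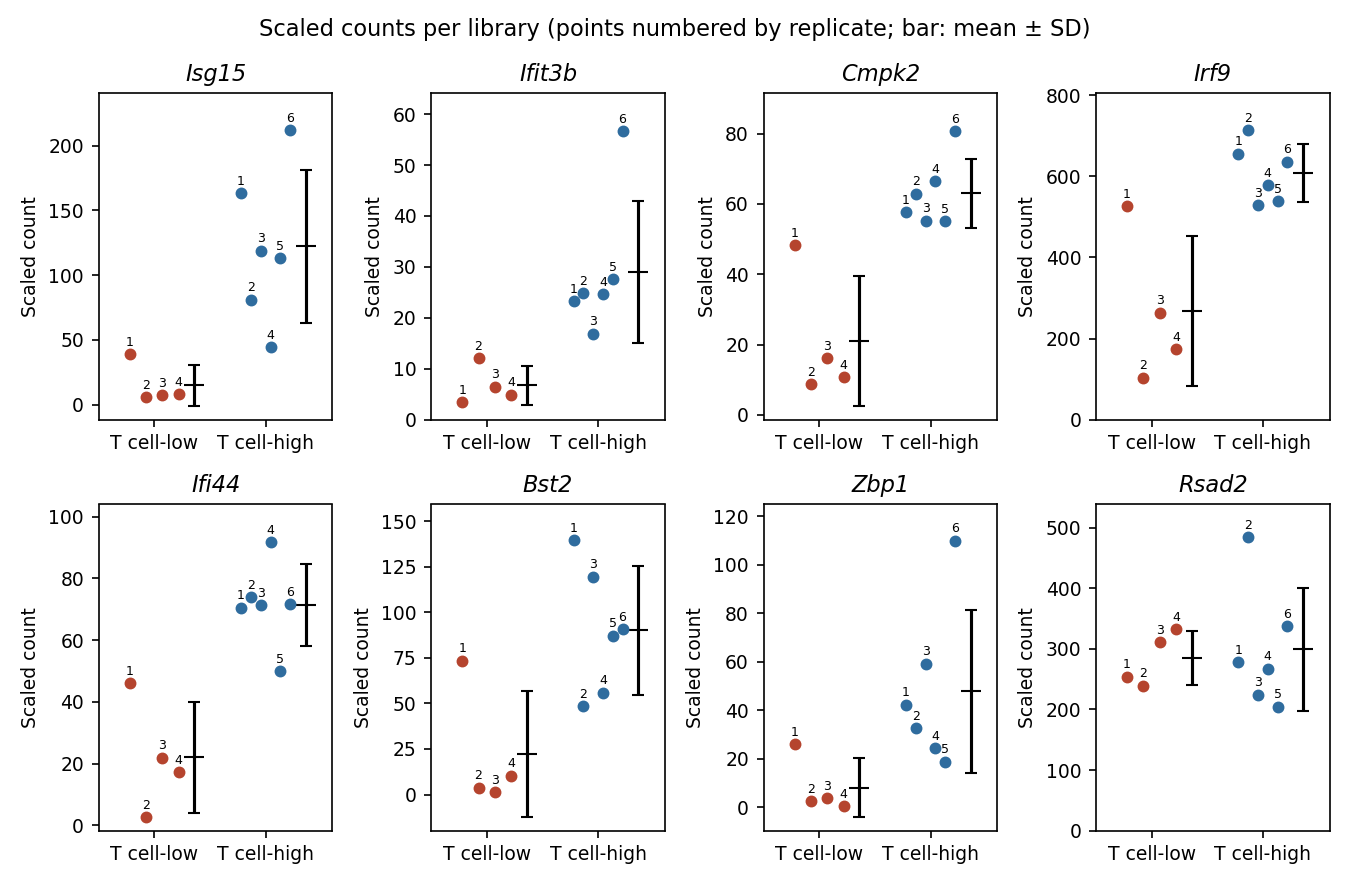
Scaled counts of 8 members in each library, points numbered by replicate within T cell-low (n = 4, red) and T cell-high (n = 6, blue), with the mean ± SD of the group as a bar. Isg15, Ifit3b, Cmpk2, Irf9 and Ifi44 do not overlap between the groups, Bst2 and Zbp1 overlap through T cell-low 1, and Rsad2 overlaps throughout.

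Of 5 remaining induced genes 2 were lower. Ifi44, a GTP-binding protein gene, had 46.2, 2.77, 22 and 17.3 scaled counts against 49.9 to 91.8 (median 71.5, log2 fold change -2.11 with an SE of 0.53, adjusted p = 0.0291), with no overlap. Xaf1, which promotes apoptosis, had 67.7, 12.1, 35.1 and 19.6 against 61.3 to 112 (median 73.7, log2 fold change -1.47 with an SE of 0.40, adjusted p = 0.0345), with T cell-low 1 inside the T cell-high range. Ifi27l2a, a small mitochondrial and nuclear envelope protein gene, had 233, 39.5, 115 and 33.9 against 84.1 to 266 (median 155, log2 fold change -0.91 with an SE of 0.52, adjusted p = 0.225), and Ifi35 had 138, 99, 107 and 107 against 106 to 230.5 (median 152, log2 fold change -0.50 with an SE of 0.25, adjusted p = 0.172). Ranges overlapped for both. Sp100, a component of nuclear bodies, had a log2 fold change of -0.40 (adjusted p = 0.333).

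The PARP family, mono-ADP-ribosyl transferases of the antiviral response, had 0 of 3 members called by limma, and 1, Parp12, was lower at an unadjusted p below 0.05. Parp12 had 63.6, 60.6, 55.5 and 42.3 scaled counts against 46.2 to 119 (median 97.5, log2 fold change -0.68 with an SE of 0.29, adjusted p = 0.116, unadjusted p = 0.0336). Parp14 had 507, 192, 398 and 191 against 280.4 to 525 (median 386, log2 fold change -0.42 with an SE of 0.30, adjusted p = 0.332). Parp9 had 1175, 538, 1254 and 330.2 against 488 to 1504 (median 686, log2 fold change -0.18 with an SE of 0.41, adjusted p = 0.776). Parp9 and Dtx3l overlap at their 5′ ends on opposite strands of chromosome 16 (Dtx3l from 35926511 to 35939151, Parp9 from 35938470 to 35972605), with Parp14 beside them. In T cell-low 3, Parp9 was within the T cell-high range and Dtx3l below it.

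Members also differed within the T cell-high group along the library set. T cell-high 2 and 4 lay above T cell-high 1, 3, 5 and 6 in 12 of 40 members (30%) and below them in 6 (15%), where 20.9% and 21.8% of all genes did so. These shares are not far from those of all genes, and nothing is read from them about the members. Parp9 had 1504 and 1264 scaled counts in T cell-high 2 and 4 against 488 to 708 in the other 4, and Oas1a had 110.2 and 93.4 against 32.6 to 65. Bst2 had the opposite order, with 48.4 and 55.9 against 87.1 to 139.7, as did Isg15, with 81.1 and 44.3 against 113 to 212. For Parp9 the log2 fold change moved from -0.18 to -0.95 with the set as a covariate, for Oas1a from -0.83 to -1.57 and for Parp12 from -0.68 to -0.13.

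**Figure D5:**
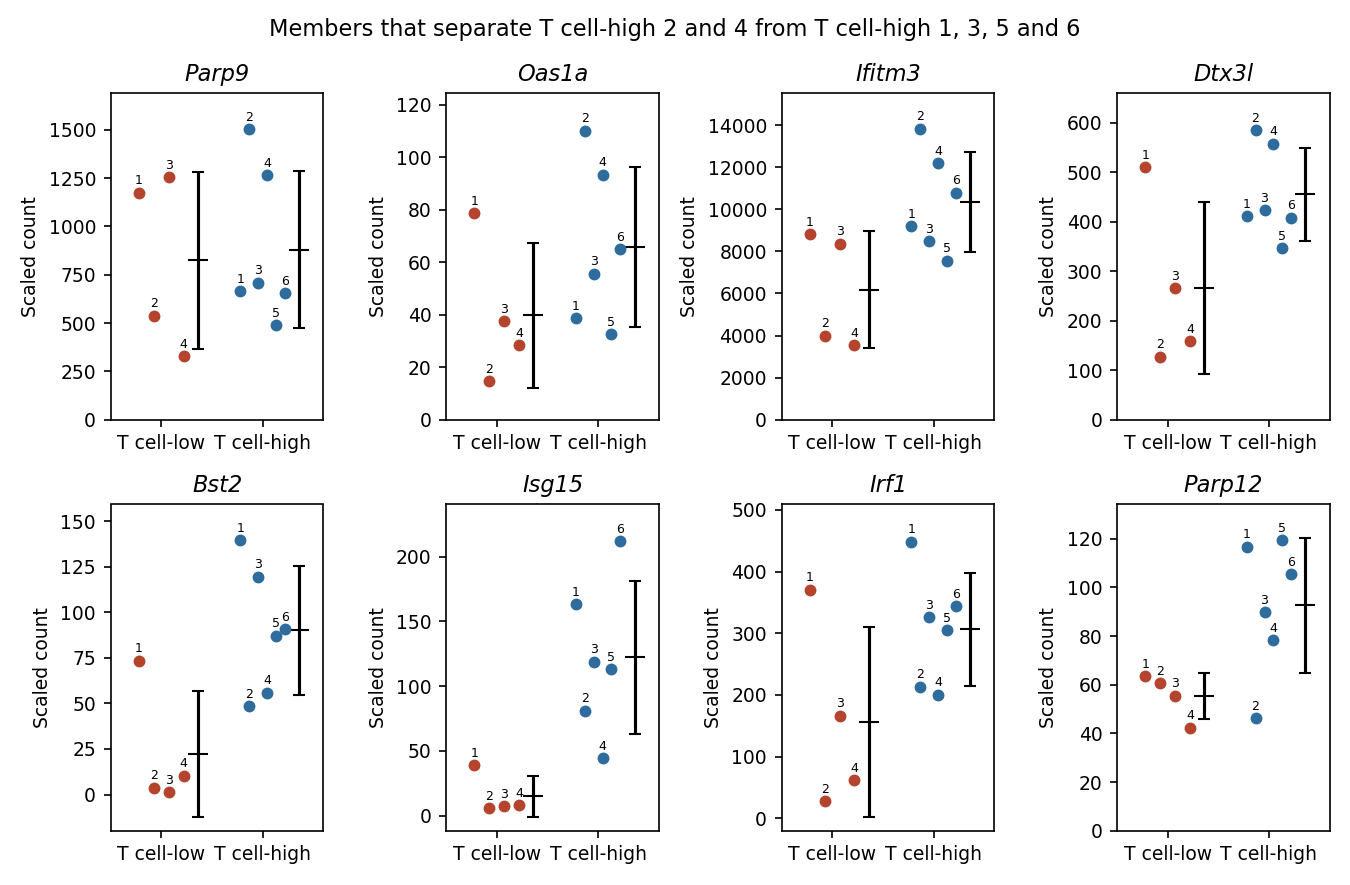
Scaled counts of 8 members that separate T cell-high 2 and 4 from T cell-high 1, 3, 5 and 6, points numbered by replicate, with the group's mean ± SD (n = 4 T cell-low, red; n = 6 T cell-high, blue). T cell-high 2 and 4 are the highest of their group for Parp9, Oas1a, Ifitm3 and Dtx3l and the lowest for Bst2, Isg15, Irf1 and Parp12.

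Upstream of these genes, ligand transcripts were at or near 0. Of 21 interferon genes in the table, 18 were listed at 0 in all 10 libraries, among them Ifnb1, and the others (Ifnk, Ifnz and Ifng) summed to at most 3.43 scaled counts in a library. Depth is unknown and sequence shared between these interferon genes was not checked, so a value of 0 does not show absence of expression. Among 8 tested genes of the receptors and Janus kinases, 1 was higher and 0 were lower by limma (3 higher and 0 lower at an unadjusted p below 0.05). Ifngr1, a chain of the interferon gamma receptor, had 230.0, 172, 312 and 405 against 135 to 174 (median 149.8, log2 fold change 0.81 with an SE of 0.24, adjusted p = 0.0429), with T cell-low 2 just inside the T cell-high range. Ifnar1, a chain of the type I receptor, had 93.1, 100.5, 111 and 93.9 against 59.2 to 81.3 (median 71.2) and did not pass (log2 fold change 0.49 with an SE of 0.20, adjusted p = 0.107, unadjusted p = 0.0292), although its T cell-low values all lay above its T cell-high values. The other chain of that receptor, Ifnar2, had a log2 fold change of 0.06 (adjusted p = 0.826), and the kinase gene Jak1 had 0.48 (adjusted p = 0.105, unadjusted p = 0.0283). Of the 8 tested genes 3 had estimates below 0, among them the other kinase gene of that receptor, Tyk2 (-0.73, limma adjusted p = 0.177).

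Of 14 tested genes of sensing and interferon induction, 1 was lower and 1 higher. Irf3, the factor that starts interferon transcription, had 206, 68.1, 149.9 and 88.6 scaled counts against 206 to 341 (median 248, log2 fold change -1.12 with an SE of 0.29, adjusted p = 0.0306); T cell-low 1 and the lowest T cell-high library were nearly equal, and the rest of the groups were apart. Tbk1, the kinase that activates IRF3, had 108, 232, 162 and 137 against 61.4 to 111 (median 73.7, log2 fold change 0.95 with an SE of 0.28, adjusted p = 0.0431), with T cell-low 1 inside the T cell-high range. The adaptor gene Mavs, which relays RIG-I and MDA5, had 169, 51.8, 39.8 and 67.6 against 359.6, 60.8, 286, 145, 385 and 408 in T cell-high 1 to 6 (log2 fold change -1.70 with an SE of 0.54, adjusted p = 0.0531), so that T cell-high 2 and 4 lay inside the T cell-low range and the other 4 above it. Irf8 had a log2 fold change of 0.0014 (adjusted p = 0.997). Of 11 tested feedback inhibitors 1 was higher, the phosphatase gene Ptpn2, with 199.9, 840.1, 324 and 505 against 115 to 288 (median 143, log2 fold change 1.37 with an SE of 0.38, adjusted p = 0.0365), and 0 were lower (2 higher and 1 lower at an unadjusted p below 0.05). Rnf125, a ligase that degrades RIG-I, had a log2 fold change of 0.44 (adjusted p = 0.371) and the phosphatase gene Ptpn11 0.17 (adjusted p = 0.616).

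Genes led by interferon gamma showed lower values too, with 8 of 14 tested called lower, 0 higher and a median of -1.86, for example Gbp6, a guanylate-binding protein gene (-4.49, adjusted p = 0.0192). Of all genes tested 7.39% were called lower and 5.39% higher. Psmb8 and Psmb10 of the immunoproteasome had -1.99 and -1.41 (adjusted p = 0.0121 and 0.017). Gbp7 was not called (adjusted p = 0.0583), nor was the peptide transporter gene Tap1 (-0.30, adjusted p = 0.488). Estimates were below 0 in 13 of the 14, and Cd274 was the exception (0.66, limma adjusted p = 0.247). In these genes the interferon types cannot be told apart, since many genes answer both.

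Other transcripts moved with the groups, and their part in the member values was not tested. Library totals ran from 7000659 to 8257373 scaled counts. Hepatocyte markers were abundant everywhere, with 282372 to 639536 in sum and 2 of 7 called higher. The 13 neutrophil markers summed to 659 to 1794 against 48.6 to 239 in the T cell-high group (4 of 5 tested higher), with 949 in T cell-low 1, whose members had the median nearest to the T cell-high mean, and with the defining marker Ly6g listed at 0 in 8 libraries. Most of that sum was S100a8 (mean 603 against 44.6) and S100a9 (440 against 48.5). Mmp9 went the other way (log2 fold change -0.25, not called), as did Csf3r, too low to test (mean 0.41 against 1.58). Of 3 tested monocyte and dendritic cell markers 2 were higher, 186 to 470 against 37.8 to 167 in sum. They were Itgam, the largest part of the sum (mean 175 against 43.9), and Chil3, while Ccr2 had a log2 fold change of 0.06. Among those too low to test, Xcr1 and Flt3 had lower means in T cell-low livers and Ly6c2, Itgax and Zbtb46 higher ones. The 11 immediate early genes summed to 1370, 5648, 3419 and 8168 in T cell-low 1 to 4 against 848 to 2326 (2 of 10 tested higher, and 5 at an unadjusted p below 0.05), so that T cell-low 2 and 4, lowest in the members, were highest in this sum. Klf6, Jun, Egr1 and Btg2 made up most of it in T cell-low livers. Egr1 was highest in T cell-low 3 (1678), and Zfp36 (log2 fold change -0.79) and Dusp1 (-0.65) had estimates below 0. Kupffer cell markers (0 of 10 called by limma, 1 lower at an unadjusted p below 0.05), B cell markers (0 of 2, and 0 unadjusted) and plasmacytoid dendritic cell markers (0 of 4, 1 lower unadjusted) overlapped between the groups in their sums, at 6667 to 10661 against 3601 to 13199, 34.7 to 113 against 28.4 to 52.8 and 601 to 805 against 465 to 715, with Cox6a2 of the last list at 0 throughout. Tcf4 made up most of the plasmacytoid sum (mean 606 against 473, log2 fold change 0.37). Of the 4 tested genes of that list 2 had estimates below 0, among them Ly6d (-2.02, limma adjusted p = 0.0958). Siglech, too low to test, had 6.15, 0, 0 and 0.82 in T cell-low 1 to 4 against 2.02 to 9.57. T and NK cell markers summed to 10.5 to 66.4 against 27.7 to 71.0, with 1 of 11 testable and not called. Sinusoidal endothelial markers summed to 2062 to 2373 against 1827 to 2631. Of 6 tested, 2 were called higher and 0 lower (2 higher and 2 lower at an unadjusted p below 0.05). Those higher were Lyve1 (log2 fold change 1.63) and Stab2 (0.79), and those lower were Kdr (-0.63) and Clec4g (-0.74). T cell-low 1 lay inside the T cell-high range in each of these genes. Pancreatic tumour cell markers summed to 292 to 456 against 125 to 235, with 1 of 3 tested higher (2 at an unadjusted p below 0.05). Most of that sum was Sox9 (mean 208 against 119, not called) and the called Msln (108 against 22.1). Krt7 was not called (mean 36.2 against 13.2, log2 fold change 1.88, limma adjusted p = 0.111). Krt19, Epcam and Cldn18, too low to test, had lower means in T cell-low livers, and Muc1 a higher one. Erythroid markers (1 of 5 tested higher, 43059 to 98086 against 19679 to 51907 in sum) completed the lists. Most of that sum was the called Hba-a2 (mean 61299 against 26940). Hbb-bs went the other way (mean 167 against 4230, log2 fold change -2.80, limma adjusted p = 0.208). Hbb-bt, Hba-a1 and Alas2 had estimates above 0 and were not called.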

How the data were processed

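RNA of livers from tumour-bearing mice was profiled in 10 libraries with a 3′ end kit (QuantSeq FWD), per the labels' protocols. STAR, DESeq2 and build mm10 are named in the submitters' processing notes, with no version; for the counter, annotation and use of strand, nothing is given in the sources used here. The authors deposited 1 signal per gene and library, a scaled count that is not a whole number, with 1 column per library and none pooled. At most 3.96% of values under 50 in a library lay within 0.01 of a multiple of its commonest low value, so reads could not be recovered, depth is unknown and no counting interval is given. Groups and replicate numbers come from the titles.

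Genes with a mean of at least 10 (11110) were tested with limma 3.58.1 in R 4.3.3 on log2(scaled count + 1), with a variance trend and group as the only term, two-sided, Benjamini-Hochberg adjusted, called below 0.05. Quasi-likelihood testing had been set for whole counts and was not used. The test was checked on simulated data with independent noise for each gene and library. Such data hold no structure shared by genes, such as the library set, so the check does not cover it. Members, lists and alternatives were chosen with earlier results of these data known. Values per library follow a rule of up to 4 members with the lowest adjusted p and the uncalled member of highest mean in each role. Other members were added so that all 42 are accounted for. Genes of each pathway list were named by a rule of up to 3 called and 2 uncalled. Ifnar1, Tyk2 and Cd274 were named beyond it, as were interferon genes too low to test. For several of these, and for all named genes led by interferon gamma, no library values are printed. Positions and 3′ ends are from GENCODE vM21; a member is uncertain where 20% or more of all 50-base words from its final 400 bases occur in another gene, and Ifit3 is near that limit. A pathway item is not reported here. Figures used matplotlib 3.10.9. Alternatives covered filter, pseudocount, scaling, trend, robust fit, library weights, threshold, replicate block, library set and each library left out.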

Additional observations from a re-analysis of the deposited data

Results flagged for a closer look

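Isg15 in T cell-low 1 was 38.7 scaled counts, while the other 3 T cell-low libraries had 5.71 to 7.77, a gap that is large for the range of 4 libraries on the log2 scale. It was the single flag in 84 groups of libraries (42 genes in both groups), and chance would flag about 1 group in 20. Without T cell-low 1 the log2 fold change of Isg15 was -3.81 in place of -3.22.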

How the results depend on the processing

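The 16 called members had a negative fold change in each alternative in which they were tested (Dhx58, Zbp1, Ifit3b, Oasl1, Usp18 and Cmpk2 were not tested at a minimum mean of 50), and no member was called higher in any. Another filter (mean of at least 1), the pseudocounts 0.5 and 5, both rescalings and the robust fit left 15 to 17 members lower. The median-of-ratios rescaling changed little (1427 genes called in place of 1420) and is a weak check, because the deposited values had already been scaled between libraries. A minimum mean of 50 left 10 of 30 tested. Rescaling to equal totals moved the median of all genes from 0.00319 to -0.11, the median member to -1.06 and the share of lower calls among all calls from 57.8% to 71.7%. Without the variance trend 852 genes were called in place of 1420, with library weights 3266, and at a threshold of 0.1 it was 2871, with 11, 22 and 22 members lower. With the library set as a covariate limma called 0 genes and 0 members (1788 genes and 25 lower members at an unadjusted p below 0.05). Leaving out a library in turn gave 109 to 3633 genes and 1 to 26 members lower, 0 higher, with the median member from -1.39 to -0.79; the fewest came when T cell-low 2 (109) or 4 (156) was absent and the most in the absence of T cell-low 1. A smaller number of libraries is part of each such fit, and beyond that the cause was not tested. The replicate block gave 193 genes and 1 member lower (Isg15, adjusted p = 0.0318); the same-numbered libraries share only a number, since their deviations correlated at 0.10, 0.21, -0.10 and -0.15 and 1 of 4 T cell-low libraries correlated best with its own number. Estimates near 0 turned sign, none of them called: Rsad2 (-0.03) was 0.14 with library weights and 0.02, 0.05, 0.12 and 0.02 without T cell-low 1, T cell-low 2, T cell-high 2 and T cell-high 6 (range -0.12 to 0.12 over the 10 fits that leave out a library); Parp9 was 0.19 without T cell-low 4 (range -0.45 to 0.19); Eif2ak2 was 0.07 and 0.10 when T cell-low 2 or 4 was left out (range -0.33 to 0.10); Adar was 0.16 with the library set as a covariate. Precision is limited by 4 and 6 libraries and by the unknown depth behind values of a few scaled counts, such as those of Zbp1 and Bst2 in T cell-low livers.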
